A study of Mus musculus with 64 samples.

Results

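The bitter taste receptor genes of the mouse, the Tas2r family, were examined for chromatin marks in B cells, a cell type outside the taste system. Members were the protein-coding autosomal genes whose symbol is Tas2r followed by a number, which gave 35 of 20665 protein-coding autosomal genes. The family was chosen from peak coverage in these same libraries, chiefly its H3K9me3 coverage, so every coverage value of a member below is a description. Counts of members that passed a test fitted over all genes are given only beside the share over all genes, and nothing is read from them. Each member was read as its gene region, the gene with 2 kb on each side, and its value is the percent of that region covered by peaks.

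Bitter taste receptors are G protein-coupled receptors that taste cells use to detect bitter and often toxic compounds. Each gene has a single short coding exon, and most members lie side by side in clusters of related genes. H3K9me3 is a histone mark of constitutive heterochromatin, which often lies over repeats and over clusters of tandemly duplicated genes. H3K27me3 and H2AK119Ub are the marks of facultative repression set by the Polycomb complexes, of which Suz12 and Ring1B are subunits, and H3K27ac marks active promoters and enhancers.

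The cells were CD23+ B cells purified from the spleens of female F1 mus x cast hybrids. Their mothers were C57BL/6 mice with a heterozygous Xist deletion and their fathers were M. m. castaneus, so this cross is shared by the resting and the stimulated cells, and the sources used here do not say which animals inherited the deletion or how old they were. In the CUT&RUN assay used, a nuclease tethered to an antibody frees the DNA beside a mark. Cells entered it either unstimulated (0 h) or after 12 or 24 h with 1 µM CpG, a DNA ligand that activates B cells through Toll-like receptor signalling. The 61 deposited peak lists hold peaks of the Cast allele alone, 1 list per library. H3K9me3 was profiled in 4 libraries per time. H3K27me3 had 3 libraries at 0 h, 3 at 12 h and 4 at 24 h, H2AK119Ub had 4, 3 and 5 in the same order, and H3K27ac, Suz12 and Ring1B had 3 per time.

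The lists grew with time for 4 of the 6 antibodies, and this touches every comparison over time. H3K9me3 lists of resting cells held 1775 to 8899 peaks, those of 12 h 19071 to 23562 and those of 24 h 23947 to 32209. They covered on average 71.8, 194 and 231 Mb of the autosomes in that order. H3K27me3 lists covered 52.0, 105 and 238 Mb on average, while Suz12 and Ring1B lists held between 18141 and 29273 peaks at all times. Read depth was not given in the sources used here, so a longer list cannot be told apart from more of the mark. All 10 B cell marker genes of the list used had an H3K27ac peak in at least 5 of 9 libraries, with a mean coverage of 26.9 to 89.8% over libraries. The count was 2 of 8 for T cell markers, 0 of 8 for myeloid markers and 0 of 5 for erythroid markers. Cd3e, Cd4, Cd8a, Lyz2, S100a8, Mpo, Hba-a1 and Alas2 were among those at 0 in every library. Those with a peak in some library were Cd3d, Cd3g and Lck (T cell), Csf1r and Itgam (myeloid) and Klf1 (erythroid).

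The members are not spread evenly over the genome. On GRCm38.p6, 33 of the 35 lie on chromosome 6, and Tas2r134 on chromosome 2 and Tas2r119 on chromosome 15 are the other two. Tas2r118 stands alone on chromosome 6, and the remaining 32 form 3 clusters there. The first holds Tas2r137, Tas2r108 and Tas2r138 over 122.1 kb, and the second holds Tas2r139, Tas2r144, Tas2r143, Tas2r135 and Tas2r126 over 294.5 kb. The third, called the distal cluster here, holds 24 genes over 1425.9 kb and falls into a proximal block of 6 genes (Tas2r130 to Tas2r114, 60.2 kb) and a distal block of 18 genes (Tas2r120 to Tas2r140, 398.8 kb) with 966.9 kb between them. That split, at gaps of 500 kb, was made after the values were seen. Genes are 882 to 1044 bp long, so regions have nearly the same length, 4882 to 5044 bp. The regions of 5 members overlap that of another member, and these members share peaks.

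The start-site windows of a few members are printed first because they span the kinds of chromatin described below. The windows come from RefSeq on GRCm38.p6, run from 250 bases before to 50 bases after the gene's start, and are written 5′ to 3′ on the gene's strand with the CG dinucleotides in capitals. Tas2r131 (chr6:132957795-132958094, minus strand) lay under an H3K9me3 peak in all 12 libraries. Tas2r120 (chr6:132656707-132657006, plus strand) lay under one in 5 libraries, 4 of them at 24 h. Tas2r123 (chr6:132846892-132847191, plus strand) and Tas2r110 (chr6:132867758-132868057, plus strand) had no peak of any antibody in the window. Tas2r143 (chr6:42399988-42400287, plus strand) had H3K27ac in 1 library and H2AK119Ub in 2, and Tas2r126 (chr6:42434285-42434584, plus strand) had H3K27me3 in 3.
Tas2r131: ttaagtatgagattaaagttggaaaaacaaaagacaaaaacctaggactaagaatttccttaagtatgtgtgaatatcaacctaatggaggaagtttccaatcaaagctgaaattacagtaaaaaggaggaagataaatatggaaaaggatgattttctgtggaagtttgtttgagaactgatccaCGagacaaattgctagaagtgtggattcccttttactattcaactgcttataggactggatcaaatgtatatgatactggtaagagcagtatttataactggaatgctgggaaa
Tas2r120: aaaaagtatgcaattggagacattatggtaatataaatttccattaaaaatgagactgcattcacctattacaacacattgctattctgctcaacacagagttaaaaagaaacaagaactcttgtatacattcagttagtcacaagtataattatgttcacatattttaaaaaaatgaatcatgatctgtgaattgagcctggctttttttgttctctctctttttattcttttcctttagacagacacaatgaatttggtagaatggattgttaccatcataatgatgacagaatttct
Tas2r123: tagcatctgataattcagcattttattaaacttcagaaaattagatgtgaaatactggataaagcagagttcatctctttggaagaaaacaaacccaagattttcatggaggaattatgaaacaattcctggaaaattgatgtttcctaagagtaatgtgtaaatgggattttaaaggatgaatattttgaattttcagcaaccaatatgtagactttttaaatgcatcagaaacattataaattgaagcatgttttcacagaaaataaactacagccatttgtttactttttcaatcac
Tas2r110: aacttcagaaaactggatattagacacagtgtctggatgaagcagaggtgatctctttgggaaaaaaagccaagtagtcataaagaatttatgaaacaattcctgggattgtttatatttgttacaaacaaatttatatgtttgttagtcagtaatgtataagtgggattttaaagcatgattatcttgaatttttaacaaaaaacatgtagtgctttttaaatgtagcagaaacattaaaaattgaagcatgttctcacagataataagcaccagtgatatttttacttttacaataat
Tas2r143: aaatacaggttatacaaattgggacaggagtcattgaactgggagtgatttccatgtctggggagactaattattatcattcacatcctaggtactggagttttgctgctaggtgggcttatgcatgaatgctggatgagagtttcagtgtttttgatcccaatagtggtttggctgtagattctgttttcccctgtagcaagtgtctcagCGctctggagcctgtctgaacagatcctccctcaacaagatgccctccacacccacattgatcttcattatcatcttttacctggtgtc
Tas2r126: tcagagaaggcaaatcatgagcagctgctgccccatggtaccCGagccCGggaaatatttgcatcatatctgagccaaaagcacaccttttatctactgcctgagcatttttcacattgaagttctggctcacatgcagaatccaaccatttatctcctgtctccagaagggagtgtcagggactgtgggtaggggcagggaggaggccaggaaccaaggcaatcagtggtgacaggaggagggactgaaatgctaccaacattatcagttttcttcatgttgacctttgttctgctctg

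These windows are poor in the dinucleotide CG, the substrate of DNA methylation and the base of CpG islands. A window was found for 31 of the 35 members, and CG, which reads the same on both strands, was counted in each. The members' windows held a median of 1 CG, with a range of 0 to 4, against a median of 14 over 16457 windows of the same length. At most 3 CG were found in 30 of 31 members (96.8%) against 24.5% of all windows, and none in 8 members against 5.0% of all windows. Their G+C content had a median of 37.0%, against 56.7% over all windows. In each window printed above the gene itself begins with ATG, the start codon, so these windows lie around the start of the coding sequence. Where the other windows lie relative to their start codons was not examined. The contrast in CG and G+C may therefore be partly one of position, which was not tested. The low CG content was shared by members with and without H3K9me3: the window of Tas2r120 and that of Tas2r123 both held 0, and that of Tas2r131 held 1. Aligned over their whole length, the windows of 465 pairs had a median identity of 47.6%. The closest pair was Tas2r110 and Tas2r123 at 66.3%, followed by Tas2r105 and Tas2r104 at 64.9%.

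H3K9me3 was found on the distal cluster and on no other member. A peak lay in at least 3 of the 12 libraries at 18 of 35 members (51.4%), against 1247 protein-coding autosomal genes (6.03%). These were 17 of the 18 genes of the distal block, together with Tas2r130 at the start of the proximal block. Tas2r107 and Tas2r106 had a peak in 1 library each, and 15 members had none in any library. Just inside that limit of 3 libraries lay Tas2r120 and Tas2r116 with 5 each. Tas2r102, Tas2r136, Tas2r129, Tas2r131 and Tas2r109 carried a peak in all 12 libraries.

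**Figure D1:**
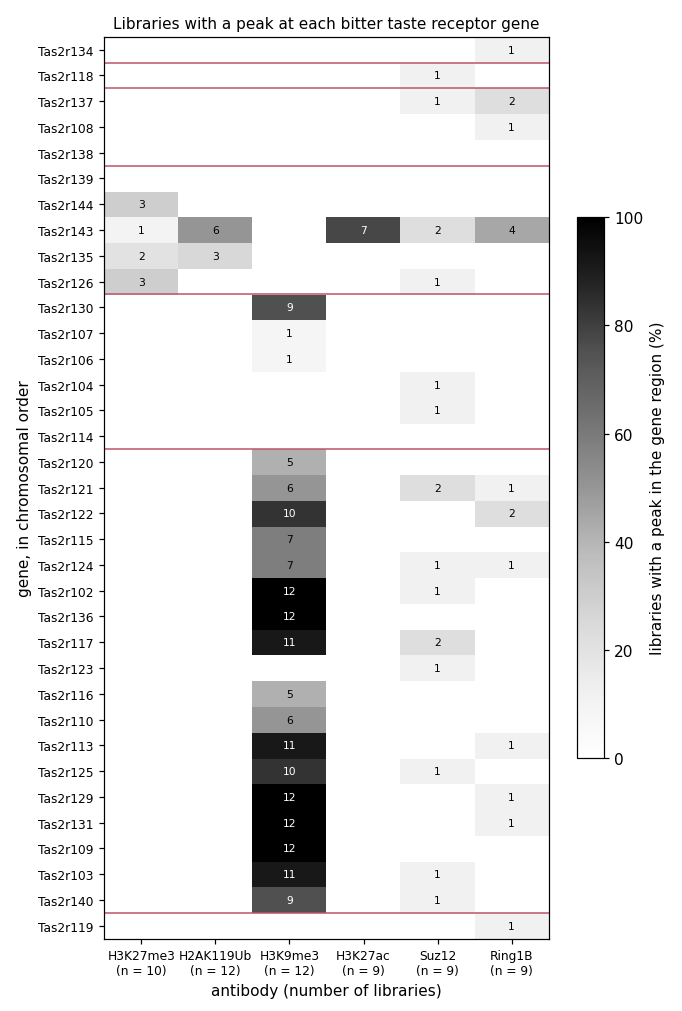
Number of libraries with a peak in the gene region (printed in the cell, shaded by percent of the antibody's libraries) for the 35 members in chromosomal order (rows) and the 6 antibodies (columns, with the number of libraries). Red lines separate the groups of neighbouring genes; H3K9me3 is found in 5 to 12 libraries at 17 of the 18 genes from Tas2r120 to Tas2r140, and H3K27me3, H2AK119Ub and H3K27ac appear only from Tas2r144 to Tas2r126.

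The most heavily covered genes already carried H3K9me3 in resting cells. Tas2r131, a receptor whose locus has been used to label bitter taste cells, was covered over 100% of its region in all 12 libraries. Tas2r136 was covered over 100% in all 4 libraries at 0 h, over 53.5, 75.7, 100 and 100% at 12 h and over 100% in all 4 at 24 h. Tas2r131 had no room for a higher value at any time, and Tas2r136 had none at 0 and 24 h. No library had less than 53.5% at either gene. Tas2r102 had 60.7, 100, 100 and 100% at 0 h and a mean of 94.0% ± 12.0 (SD, n = 4) at 24 h. Tas2r109 read 64.5% in 11 of 12 libraries, and 13.6% in the 12 h library of replicate 2. The shortest H3K9me3 list, that of 0 h replicate 1 with 1775 peaks, still covered 100% of Tas2r136, Tas2r131 and Tas2r103, 64.5% of Tas2r109, 60.7% of Tas2r102 and 33.6% of Tas2r129.

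Other genes of the distal block were free of H3K9me3 peaks at 0 h and carried them later. Tas2r120, the first gene of the block, had 0% in all 4 libraries at 0 h, 0, 0, 78.8 and 0% at 12 h and 100, 89.9, 84.6 and 89.9% at 24 h. Its 24 h libraries all lay above every 0 and 12 h library. The difference between 24 and 0 h was 91.1 percentage points with all peaks, 65.7 scaled by autosomal coverage, 47.5 in the top 50% of each list by signal and 0 with lists cut to the shortest. Tas2r124 had 0% in all 4 libraries at 0 h, 41.3, 0, 96.0 and 38.2% at 12 h and 68.9, 43.1, 100 and 15.5% at 24 h. For this receptor the 24 h libraries lay above all 0 h libraries and overlapped those of 12 h. Tas2r121 had 0% at 0 h, 0, 100, 53.2 and 55.8% at 12 h and 38.4, 0, 38.6 and 100% at 24 h. Tas2r116 had 0% at 0 h, 46.6, 0, 0 and 59.9% at 12 h and 63.1, 68.8, 68.5 and 0% at 24 h. For Tas2r121 and Tas2r116, 1 library at 24 h remained at 0%, so their groups overlap.

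**Figure D2:**
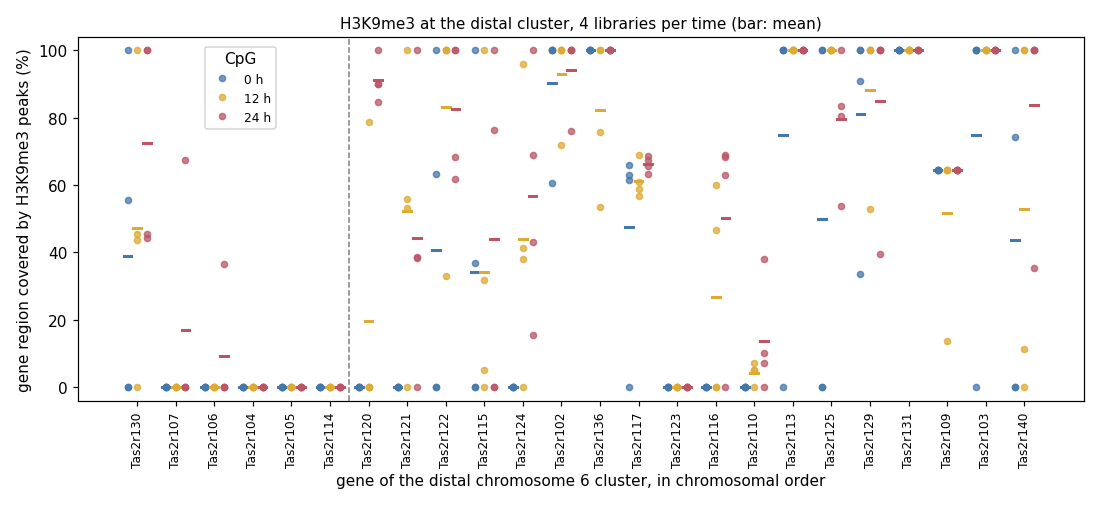
Percent of the gene region covered by H3K9me3 peaks (y axis) at the 24 genes of the distal cluster (x axis, chromosomal order), with 1 point per library, 4 libraries per time and a bar at their mean; the dashed line separates the blocks of 6 and 18 genes. Tas2r131 sits at 100% in all 12 libraries, Tas2r120 is at 0% in all 4 libraries at 0 h and at 84.6% or more in all 4 at 24 h with all peaks counted, and Tas2r123 stays at 0%.

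Over the whole family, mean H3K9me3 coverage was 24.0% ± 9.61 in resting cells, 32.6% ± 1.42 after 12 h and 38.7% ± 4.64 after 24 h (SD over libraries, n = 4 each). The values at 0 h were 13.1, 29.5, 34.3 and 19.2%, and those at 24 h were 40.5, 32.6, 43.6 and 38.1%. The groups overlap, since 1 library of 0 h lay above 1 of 24 h. Over the 18 genes of the distal block alone the means were 44.6% ± 17.4, 60.8% ± 4.15 and 69.8% ± 8.63. Members covered over at least 50% on the mean numbered 8, 12 and 15 of 35 at 0, 12 and 24 h, against 0.324, 0.973 and 1.33% of all protein-coding autosomal genes.

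The rise over time was smaller than that of the lists themselves. The family mean divided by the mean over all protein-coding autosomal genes of the same list was 55.0 ± 21.8 in resting cells, 20.1 ± 1.20 after 12 h and 19.1 ± 1.74 after 24 h (SD, n = 4 per time). It was 31.7 or higher in each library at 0 h and 21.7 or lower in each later library. With each library scaled by its own autosomal coverage, the family mean turned downward, from 64.9 ± 22.7 at 0 h to 27.7 ± 2.21 at 24 h. With lists cut to equal length, the difference between 24 and 0 h was -1.47 percentage points, against 14.7 with all peaks. The sign of the family's change over time therefore differed between these scalings. Members at 100% at 0 h, such as Tas2r131, could not rise with the lists, which limits the ratio and the scaled mean.

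Genes were also tested over the 3 times with limma, a moderated F-test, where at least 3 libraries of the antibody had a peak. For H3K9me3 this gave 18 members, of which 1, Tas2r120, passed an adjusted p of 0.05. Tas2r120 met that filter through its 12 and 24 h libraries alone, so the filter itself favoured a difference. The share called over all 2332 tested genes was 52.3%, and 51.4% were called and higher at 24 than at 0 h. The median difference between 24 and 0 h was 25.0 percentage points over the 18 members and 22.6 over all tested genes. The family was chosen on this coverage, so nothing is read from these counts. Genes at 100% from the start, such as Tas2r131, have no room to be called higher.

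H3K9me3 over the distal block came as long peaks with free stretches between them. Of the 402.8 kb from Tas2r120 to Tas2r140 with flanks, peaks covered 32.3% ± 15.6 in resting cells, 48.4% ± 2.45 after 12 h and 50.7% ± 3.74 after 24 h (SD, n = 4 per time). The number of peaks there was 7.0 ± 2.45, 16.5 ± 1.29 and 19.25 ± 1.26, and the longest peak of a library measured 23.4 to 54.3 kb. Every library had at least 1 peak that reached over 2 or more of the genes. Within their own lists these peaks ranked high by the authors' signal value, with a median percentile of 80.3, 77.9 and 77.9 on average at 0, 12 and 24 h. The proximal block of 6 genes was covered over 3.37% ± 4.39, 19.6% ± 6.24 and 27.4% ± 7.66 of its 64.2 kb. Its first gene, Tas2r130, had 0, 0, 100 and 55.5% at 0 h and 100, 44.2, 45.3 and 100% at 24 h.

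Peak edges recurred between libraries, as the peak over Tas2r109 shows. It started at chr6:132979771 and ended at chr6:132987566 in 11 libraries each, on both sides of which no H3K9me3 peak lay for 4.4 and 29.8 kb in any library. An end at chr6:132961997, just past Tas2r131, was found in 10 libraries. Of 342 peak edges in the block, 100 lay at a base shared by 2 or more libraries.

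Tas2r123 was the exception within the block, with 0% H3K9me3 in all 12 libraries. It lies in a stretch of 50.6 kb, chr6:132804347-132854970, without an H3K9me3 peak in any library, between Tas2r117 and Tas2r116. A Suz12 peak in 1 library at 12 h covered 0.800% of its region and was its only peak of any antibody. Around it, 38.7 kb and 9.8 kb were without a peak in all 61 lists. Tas2r110, its closest relative by start-site window, had 0% at 0 h, 5.10, 7.16, 0 and 4.98% at 12 h and 0, 7.14, 38.2 and 10.2% at 24 h. A stretch of 9.2 kb that includes the gene itself had no peak in any list, and its coverage came from the flank after the gene. Peaks of the Cast allele need reads that differ between the parents, and the number of such positions was not available here, so a region without peaks cannot be told apart from a region without assignable reads.

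**Figure D3:**
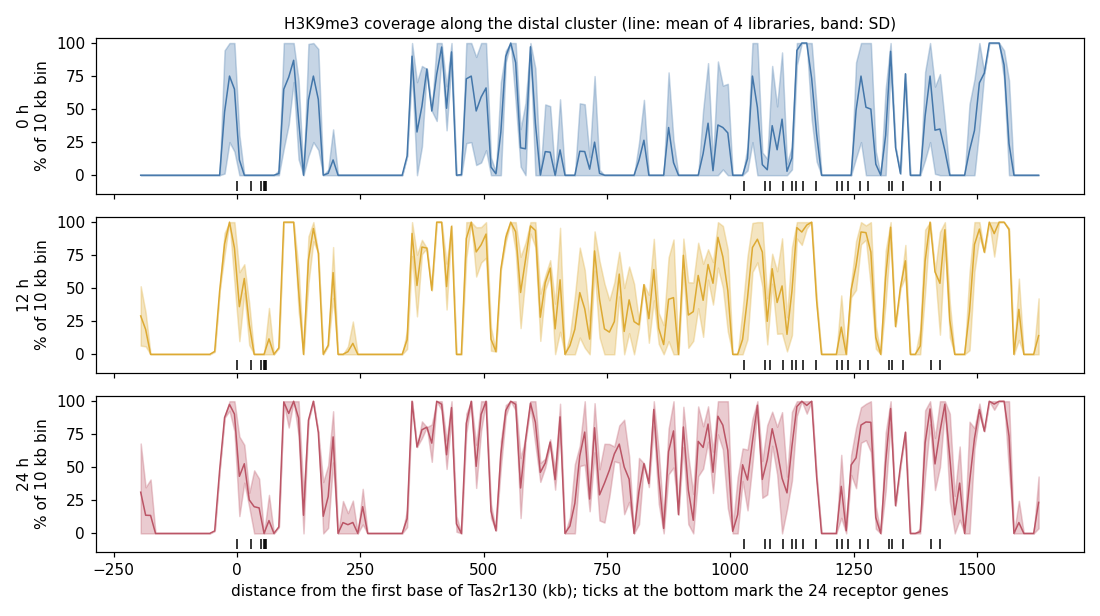
Percent of each 10 kb bin covered by H3K9me3 peaks (y axis) against the distance from the first base of Tas2r130 (x axis, kb) at 0, 12 and 24 h; the line is the mean of 4 libraries, the band 1 SD cut off at 0 and 100%, and ticks mark the 24 receptor genes. Coverage fills in between the blocks at 12 and 24 h, and the gap around Tas2r123 stays empty at all times.

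The mark also lay over genes between the receptors. The 7 other protein-coding genes inside the span of the distal cluster all had H3K9me3 in at least 3 libraries, and none had a peak of H3K27me3, H2AK119Ub or H3K27ac in any. They include Prh1, Prb1, Prp2 and Prpmp5, which encode proline-rich proteins of saliva. Prh1 had a mean coverage of 4.04% at 0 h and 58.6% at 24 h, and Prp2 had 11.9 and 30.5%. Gm4736, with a peak in 11 libraries, had 40.3 and 34.8% and was the only one of the 7 with a lower mean at 24 h. The lists were longer at 24 h, which touches these values as well. In the 500 kb on either side of the span, 3 of 9 genes had H3K9me3 in at least 3 libraries and 5 of 9 had H3K27me3. Styk1, a kinase gene on the proximal side, had 0% H3K9me3 throughout and a mean H3K27me3 coverage of 25.0% at 0 h and 87.6% at 24 h.

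The clusters of Tas2r137 to Tas2r138 and of Tas2r139 to Tas2r126 had no H3K9me3 peak in any of the 12 libraries. The first of them holds Tas2r108, known as a receptor for denatonium, and Tas2r138, the relative of the human receptor for phenylthiocarbamide. Tas2r138 had no peak of any antibody in 61 libraries. Tas2r108 had a Ring1B peak over 20.3% of its region in the 0 h library of replicate 1, and its neighbour Tas2r137 had Ring1B over 46.6, 38.3 and 0% at 0 h and 0% in the 6 later libraries. The regions of Tas2r137 and Tas2r108 overlap. Tas2r137 also had a Suz12 peak over 38.6% of its region in the 24 h library of replicate 2. Tas2r139 and Tas2r114 were the other members without any peak. Tas2r105, a cycloheximide receptor in the proximal block of the distal cluster, had a single Suz12 peak over 33.5% of its region in 1 library at 0 h, which its neighbour Tas2r104 shared at 33.5%. The 3 members outside clusters had 1 peak each: Ring1B over 1.31% of Tas2r134 and over 46.6% of Tas2r119, in the same 12 h library, and Suz12 over 7.18% of Tas2r118 in 1 library at 24 h.

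H3K27me3 was found at 4 members, all in the cluster of Tas2r139 to Tas2r126 and all at 24 h. In at least 3 libraries it lay at 2 of 35 members, against 11914 of 34328 protein-coding and lncRNA genes of the autosomes and X. That set is wider than the protein-coding autosomal genes used for H3K9me3. Tas2r144 had 0% in the 6 libraries of 0 and 12 h and 0, 48.2, 53.9 and 52.5% at 24 h. Tas2r126 had 42.1, 36.2, 0 and 100% at 24 h, and Tas2r135 had 0, 0, 32.9 and 100%. Tas2r143, Tas2r135 and Tas2r126 lie next to each other and have been studied as a group in chemosensory cells of the airway and urethra. Tas2r143 had H3K27me3 over 36.0% in the 24 h library of replicate 4 and 0% in the other 9. No library at 0 or 12 h had a peak at any member, and each 24 h library had one at 1 or more. The family mean was 0% at 0 and 12 h and 3.59% ± 3.16 (SD, n = 4) at 24 h. Without the 24 h library of replicate 4 it was 2.03%, and with lists cut to equal length it was 0%, as were Tas2r144 and Tas2r126. In the 28.0 kb between Tas2r135 and Tas2r126, H3K27me3 covered 9.95% ± 17.2 in resting cells, 18.4% ± 4.94 after 12 h and 57.5% ± 11.2 after 24 h (SD, n = 3, 3 and 4). The 24 h libraries there, at 44.1 to 71.1%, all lay above those of 0 and 12 h, of which the highest was 29.8%.

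The Polycomb marks lay over the other genes of this cluster as well. Of the 7 other genes inside the span, 5 had H3K27me3 and 6 had H2AK119Ub in at least 3 libraries, and none had H3K9me3. Epha1, an ephrin receptor gene, had no H3K27me3 at 0 h and a mean of 47.9% at 24 h. Fam131b was covered at all times, with means of 56.9 and 65.4% at 0 and 24 h. In the limma test for H3K27me3, 2 members, Tas2r144 and Tas2r126, met the filter, both through their 24 h libraries alone, so their p-values are not given. Over all 11914 tested genes 56.8% were called, and 56.5% were called and higher at 24 than at 0 h. H3K27me3 lists lengthened over the same hours, and without the 24 h library of replicate 2 or 4 neither member was tested.

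H2AK119Ub was found at Tas2r143 and Tas2r135 alone. Both had it in at least 3 libraries, which makes 2 of 35 members, against 13845 of 34328 protein-coding and lncRNA genes. Tas2r143 had 0, 79.1, 0 and 0% at 0 h, 19.6, 16.7 and 0% at 12 h and 16.3, 21.0, 0, 0 and 42.2% at 24 h. Tas2r135 had 29.3, 0, 0 and 0% at 0 h, 0, 0 and 49.3% at 12 h and 6.67% in 1 of 5 libraries at 24 h. The libraries with a peak at Tas2r143 and those with a peak at Tas2r135 overlapped in 24 h replicate 1 alone, and the times overlap for both genes. Both members were tested and 0 were called, with 0 also at an unadjusted p under 0.05. The share called over all 13845 genes was 33.2%, with 31.0% called and higher at 24 than at 0 h.

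Tas2r143 was the only member with H3K27ac. In at least 3 libraries the mark lay at 1 member, against 9342 of 34328 protein-coding and lncRNA genes. The region of Tas2r143 was covered over 0, 30.6 and 47.2% at 0 h, 21.9, 27.3 and 14.8% at 12 h and 22.4, 26.1 and 0% at 24 h. The times overlap, and 7 of 9 libraries had a peak. In all 7 it began 3815 to 7335 bases before the gene's first base, and in 6 of the 7 it ended 509 to 1280 bases before it. In the remaining library, 0 h replicate 3, it ended 304 bases past the first base. The 6 kb before the gene held Ring1B peaks in 4 of 9 libraries, Suz12 peaks in 4 of 9 and H2AK119Ub peaks in 6 of 12. The H3K27ac peaks ranked at percentiles 26.6 to 59.5 of their lists by signal. The 1 member tested for H3K27ac was not called, with 0 at an unadjusted p under 0.05, where 1.46% of 9342 genes were called.

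**Figure D4:**
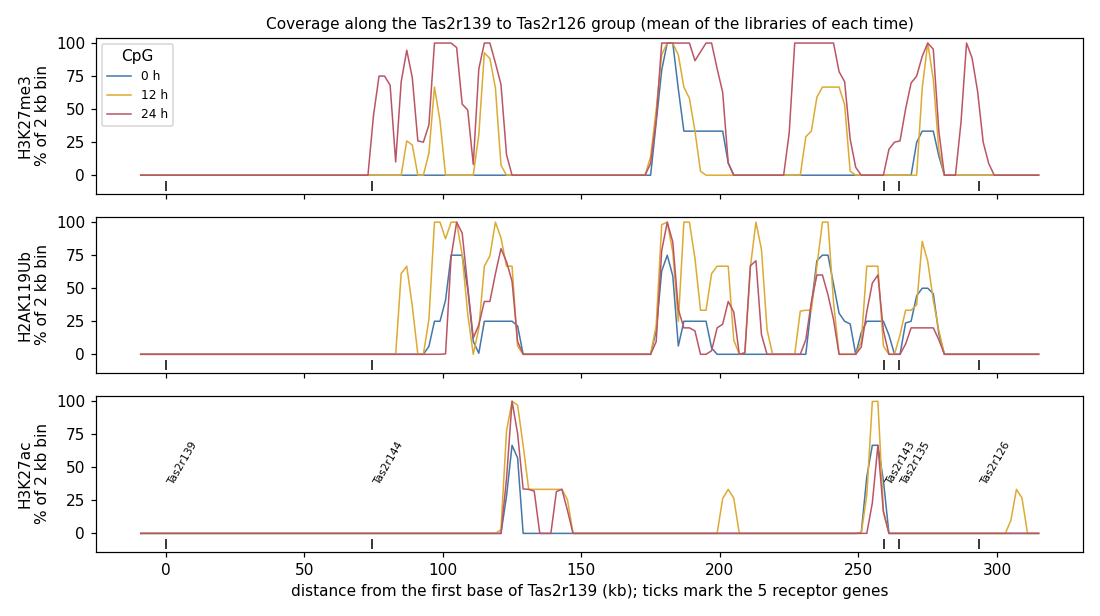
Percent of each 2 kb bin covered by peaks of H3K27me3, H2AK119Ub and H3K27ac (y axis) against the distance from the first base of Tas2r139 (x axis, kb), as the mean of the libraries at 0, 12 and 24 h; ticks mark the 5 receptor genes. H3K27me3 widens at 24 h around Tas2r144 and between Tas2r135 and Tas2r126, and H3K27ac stands just before Tas2r143.

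Suz12 and Ring1B were scattered over the family, mostly 1 library at a time. Suz12 peaks lay at 14 members in at least 1 of 9 libraries and at none in 3 or more, against 62.4% of protein-coding autosomal genes in 3 or more. The highest values were 51.2% at Tas2r102 in 0 h replicate 1 and 47.2% at Tas2r121 in 0 h replicate 2. Tas2r121 also had 21.5% in 24 h replicate 1. Ring1B peaks lay at 11 members. At Tas2r143 they lay in 4 of 9 libraries, at 15.2, 20.1 and 0% at 0 h, 0% at 12 h and 0, 15.7 and 14.2% at 24 h. In at least 3 libraries Ring1B lay at 1 member, against 17641 of 34328 protein-coding and lncRNA genes. The 12 h library of replicate 1 had the fewest Ring1B peaks, 18141, but the largest autosomal coverage of the Ring1B libraries, 101 Mb. That library held Tas2r124 at 100%, Tas2r131 at 55.5%, Tas2r119 at 46.6%, Tas2r121 at 37.1% and Tas2r129 at 26.1%. At these 5 members every other Ring1B library had 0%. Tas2r122 had Ring1B over 49.8% in 0 h replicate 1 and over 21.1% in 12 h replicate 2. No member was tested for Suz12, where 0% of 18049 genes were called by limma and 1582 had an unadjusted p under 0.05. The 1 member tested for Ring1B was not called, with 0 at an unadjusted p under 0.05, where 0.0850% of 17641 genes were called.

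**Figure D5:**
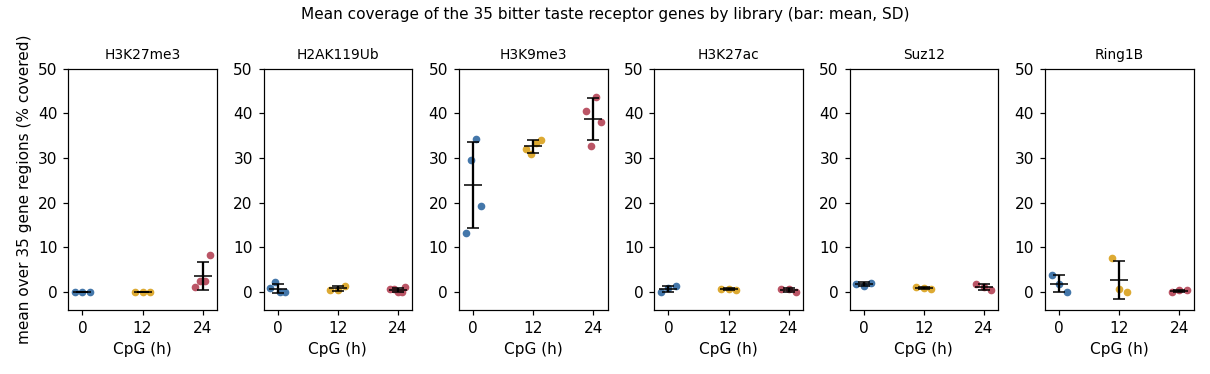
Mean coverage of the 35 gene regions (y axis, percent) by library (points) at 0, 12 and 24 h of CpG (x axis) for the 6 antibodies, with the group mean and SD in black. H3K9me3 lies between 13.1 and 43.6% in every library, while no library of the other 5 antibodies exceeds 8.24%.

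H3K9me3 lay on other members than H3K27me3, H2AK119Ub and H3K27ac did. Of the 18 members with H3K9me3 in at least 3 libraries, 0 had any peak of H3K27me3, H2AK119Ub or H3K27ac, and those 3 marks together touched 4 members, which had no H3K9me3. Over all 1247 protein-coding autosomal genes with H3K9me3 in at least 3 libraries, 69.7% likewise had no peak of those 3 marks, and the difference was not tested. Suz12 or Ring1B peaks lay in at least 1 library at 11 of the 18 members (61.1%), against 82.2% of the 1247 genes. Tas2r143 had peaks of all antibodies other than H3K9me3. Of the 35 members, 3 had no peak of any of the 6 antibodies.

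Other families of chemosensory receptors differed in their share of H3K9me3 genes, side by side and without a test. A peak in at least 3 libraries was found at 51.4% of the 35 Tas2r genes, 41.0% of 122 Vmn2r genes and 10.9% of 230 Vmn1r genes, which encode pheromone receptors. The share was 16.7% of 1104 Olfr genes, the odorant receptors, and 0% of 15 Taar genes, the trace amine receptors. Mean H3K9me3 coverage at 24 h was 38.7% for Tas2r, 13.4% for Vmn2r, 8.91% for Olfr and 4.71% for Vmn1r. H3K27me3 at 24 h ran in another order, at 27.1% for Taar, 8.97% for Olfr, 5.72% for Vmn1r, 3.59% for Tas2r and 1.84% for Vmn2r.

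A list of 14 taste genes holds the signalling proteins that act downstream of the receptors, the sweet and umami receptor subunits and Pou2f3. Of the 13 found in the gene table, 0 had H3K9me3 peaks in at least 3 libraries, against 6.03% of protein-coding autosomal genes. For H3K27me3, 2 of 5 tested genes rose by 24 h in the limma test and 0 fell, where 56.5% of all tested genes were called and higher. They were Pou2f3, the transcription factor that specifies sweet, umami and bitter taste cells and tuft cells, and Tas1r2, a subunit of the sweet receptor. Pou2f3 went from 8.31% ± 14.4 (SD, n = 3) at 0 h to 69.8% ± 8.53 (n = 4) at 24 h with a limma adjusted p of 0.00284. Tas1r2 went from 10.7% ± 9.29 to 67.5% ± 10.3 with a limma adjusted p of 0.000725. With libraries scaled by autosomal coverage neither was called, at limma adjusted p of 0.165 and 0.622, and Pou2f3 was not called at equal list length, at 0.186. For H2AK119Ub, 3 of 9 rose and 0 fell, a share near the 31.0% of all tested genes called and higher, so it is no result about the list. The 3 were Plcb2, the phospholipase downstream of the receptors, Tas1r1, a subunit of the umami receptor, and Tas1r2. Tas1r1 went from 0% at 0 h to 71.1% ± 17.6 (SD, n = 5) at 24 h. Tas1r1 and Tas1r2 had no H2AK119Ub peak at 0 h and met the filter through their 12 and 24 h libraries alone. The filter itself favoured a difference there, so their p-values in the main test are not given. Tas1r1 was not called at equal list length, at a limma adjusted p of 0.456. Tas1r2 was not called in the top 50% of each list by signal, at a limma adjusted p of 0.185. Plcb2 went from 24.4% ± 11.5 (n = 4) to 49.9% ± 6.01 (n = 5) with a limma adjusted p of 0.0393, and its direction turned under scaling with an adjusted p of 0.311. Plcb2 was not called without flanks, at equal list length or without any 1 of 7 libraries (0 h replicate 1, 3 or 4, 12 h replicate 1, 24 h replicate 2, 3 or 5). Its limma adjusted p ran from 0.0512 to 0.137 without those libraries, and was 0.0629 without flanks and 0.0528 at equal list length. H3K27ac lay on Gnat3, the G protein of taste cells, over 6.11% ± 10.6 in resting cells, 35.7% ± 14.2 after 12 h and 22.3% ± 8.49 after 24 h (SD, n = 3 per time). Of the list, 0 of 7 genes tested for H3K27ac were called by limma, where 1.46% of all 9342 tested genes were called. The counts were 0 of 9 for Suz12, where 0% of 18049 genes were called, and 0 of 9 for Ring1B, where 0.0850% of 17641 genes were called. Of the 6 taste or tuft cell markers, 3 had an H3K27ac peak in at least 5 of 9 libraries, and Pou2f3, Gng13 and Tas1r3 were at 0 in every library.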

How the data were processed

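CUT&RUN libraries of CD23+ B cells were read from 61 peak lists, 1 per library; 3 IgG samples of the 64 were not analysed here. The authors deposited SEACR peaks of the Cast allele, per the labels on the lists; the signal columns (summed and highest coverage per peak) are the authors' values and served only to rank peaks within a list. Histone mark lists used a relaxed setting, and Suz12 and Ring1B lists a stringent one that kept a top share of 0.01. Per the submitters' processing notes, Trimmomatic 0.32, Bowtie2 2.3.4.1, Picard and deepTools 3.5.1 were used with mm10. Not given in the sources used here are the SEACR version, the handling of reads that map to several places, the allele split and the depth.

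Gene positions and start-site windows came from RefSeq tables of GRCm38.p6, the assembly of mm10. For each library the percent of a gene region (gene ± 2 kb) covered by peaks was computed for 34328 protein-coding and lncRNA genes. Genes with a peak in at least 3 libraries of an antibody were tested over 0, 12 and 24 h with limma 3.58.1 in R 4.3.3 (trend and robust options), with Benjamini-Hochberg adjustment over all tested genes and a threshold of 0.05. A called gene rose or fell by the sign of the 24 against 0 h contrast when its unadjusted p was also under 0.05. The labels call the replicates biological and tie no number to an animal. Both steps were tested on simulated data. The percents simulated for limma had normal noise narrower than the observed mean SD and no growth of the lists over time. That test does not cover those features of the data. Python 3.11.15, with Biopython 1.88, pandas 2.3.3, numpy 2.4.6 and matplotlib 3.10.9, served for the rest.

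Members described in full were, per antibody, the 4 with the largest difference between 24 and 0 h and the 2 with the highest mean, members in no cluster (a run of at least 3 with gaps under 1 Mb), and Tas2r105, Tas2r108 and Tas2r138; others are given by range, and Tas2r102, Tas2r109, Tas2r110, Tas2r123 and Tas2r130 were singled out after their values were seen. The members and lists were chosen with earlier results of these data known. Alternatives were genes without flanks, scaling by autosomal coverage, the top 50% of each list by signal, lists of equal length, no filter, a replicate block, log2(percent + 1), and leaving out each library.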

Additional observations from a re-analysis of the deposited data

Results flagged for a closer look

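Among 26 groups of 4 or 5 libraries with unequal values, for described members, the family mean and the mean of the 18-gene block, 7 had 1 library set apart from the others by Dixon's ratio; chance flags about 1 in 20 groups, and groups made of zeros and 1 value are always set apart. For H3K9me3, Tas2r120 at 12 h had 78.8% in replicate 3 and 0% in the other 3 libraries, and Tas2r116 at 24 h had 0% in replicate 4 against 63.1 to 68.8% in the others.

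For H3K27me3 at 24 h, Tas2r144 had 0% in replicate 1 against 48.2 to 53.9% in the others, and Tas2r143 had 36.0% in replicate 4 and 0% in the others. For H2AK119Ub at 0 h, Tas2r135 had 29.3% in replicate 1 and Tas2r143 had 79.1% in replicate 2, with 0% in the other libraries. For H2AK119Ub at 24 h, Tas2r135 had 6.67% in replicate 1 and 0% in the others.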

How the results depend on the processing

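Read depth and the number of positions that tell the alleles apart were not given, and the values are percents of a region under called peaks, so a value of 0 means that no peak was called. Of 613 alternative values, 508 kept their call or stayed within the spread between libraries or 1.5 times the main count, 88 moved further, 16 lost a call and 1 changed direction: Plcb2 for H2AK119Ub, scaled by autosomal coverage, at an adjusted p of 0.311. The cause was not tested except where fewer genes or libraries were used.

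The difference of the family mean between 24 and 0 h, 14.7 percentage points for H3K9me3, became -37.2 scaled by autosomal coverage and -1.47 at equal list length. For H3K27me3 it went from 3.59 to 0 at equal list length, for H2AK119Ub from -0.282 to -1.25 scaled, and for Suz12 from -0.663 to -1.82 without flanks and 0 in the top 50% of each list. Members called for H3K9me3, 1 of 18 in the main test, numbered 3 of 18 scaled, 0 of 10 at equal list length and 1 to 3 without a library. Over all tested genes 1219 of 2332 were called in the main test, 776 of 2332 scaled, 39 of 457 at equal list length and 890 to 1227 without a library. On the log2 scale 2 of 18 members were called (Tas2r120 and Tas2r124), where 1297 of 2332 genes were. In the top 50% of each list the 1 called of 16 members was Tas2r124, where 552 of 1397 genes were called. Like Tas2r120, Tas2r124 had no peak at 0 h and met the filter through its 12 and 24 h libraries alone. The filter itself favoured a difference there, so nothing is read from these calls. Of the 3 called scaled, Tas2r120 was higher and Tas2r102 and Tas2r129 were lower at 24 h. Unscaled, means at 0 and 24 h were 90.2 and 94.0% for Tas2r102 and 81.1 and 84.9% for Tas2r129. Unscaled values stop at 100%, and scaling divides them by the list's coverage, which was lowest at 0 h. Members called for H3K27me3, 1 of 2 in the main test, numbered 0 of 2 scaled and 2 of 2 on the log2 scale. None was tested in the top 50% or at equal list length. Without a library 0 to 1 members were called (0 without 0 h replicate 1 or 2 or 24 h replicate 2 or 4). Over all tested genes 6771 of 11914 were called in the main test, 2363 of 11914 scaled, 6317 of 11914 on the log2 scale and 4163 to 7734 without a library.

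Genes called over time numbered 6771 for H3K27me3, and 2363 scaled, 288 at equal list length and 4163 to 7734 without a library. They numbered 4597 for H2AK119Ub, and 2998 in the top 50%, 690 at equal list length and 2459 to 6682 without a library. They numbered 1219 for H3K9me3, and 776 scaled, 552 in the top 50%, 39 at equal list length and 890 to 1227 without a library. They numbered 136 for H3K27ac, and 0 scaled, 60 in the top 50%, 985 on the log2 scale and 0 to 725 without a library. They numbered 0 for Suz12, and 7 without flanks, 1 scaled, 197 in the top 50% and 308 on the log2 scale. They numbered 15 for Ring1B, and 51 without flanks, 72 scaled, 235 in the top 50%, 126 at equal list length, 1 without the filter, 213 on the log2 scale and 0 to 2 without a library.

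Whether the replicate numbers pair the libraries could not be settled, since the labels tie no number to an animal. Deviations of libraries with the same number correlated at -0.214 to 0.082 over the 6 antibodies. For libraries with different numbers the range was -0.245 to 0.311. With the replicate number as a block, 4156, 2193, 1148, 0, 0 and 0 genes were called for H3K27me3, H2AK119Ub, H3K9me3, H3K27ac, Suz12 and Ring1B. For H3K9me3, where 2332 genes were tested, 2 of 18 members were called, Tas2r120 and Tas2r124. For H3K27me3, where 11914 genes were tested, 0 of 2 members were called. With that block, limma no longer called Plcb2 (adjusted p of 0.141) or Tas1r2 (0.0559) for H2AK119Ub.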
